A study of Mus musculus with 8 samples.

Results

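The ISG15 conjugation machinery was followed through 5 genes, Isg15, Uba7, Ube2l6, Herc6 and Usp18, chosen by name from the 30284 genes that had a value, and all 5 passed the filter on low values. ISG15 is a small ubiquitin-like protein that cells attach to other proteins after interferon or infection, a process called ISGylation. Attachment runs through a chain of enzymes like that of ubiquitin: UBA7 activates ISG15 (the E1 step), UBE2L6 carries it (the E2 step) and, in mice, HERC6 is the main ligase that places it on targets (the E3 step). USP18 removes ISG15 again and, separately, sits on the IFNAR2 chain of the type I interferon receptor and damps its signalling. Free ISG15 is also secreted, and macrophages are among the cells in which the whole set is known as interferon-induced.

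RNA sequencing of total RNA gave 8 libraries of macrophages from male C57BL6 mice aged 7 weeks, stimulated through the peritoneum (the labels call the cells peripheral macrophages), with 2 libraries in each of 4 groups. The groups were LPS+IFNb (interferon beta for 4 h, then lipopolysaccharide for 4 h), LPS (lipopolysaccharide, the bacterial membrane component sensed by TLR4, for 4 h), IFNb (interferon beta for 4 h) and Saline (for 4 h). The title of the series puts the question as the effect of IFN-b priming on the response to LPS. The LPS+IFNb libraries were thus taken 8 h after IFNb, and the IFNb libraries 4 h after it, so the addition of LPS and the longer time cannot be told apart in a comparison of these groups. Whether both libraries of 1 group are from different mice is not stated in the labels, so p-values reflect library-to-library spread alone, and that spread may be technical. Values are TPM, a length-corrected relative abundance of each transcript in its library, summed over the transcripts of a gene, so the read depth is unknown.

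The libraries fitted the label macrophage in part. The 7 macrophage markers summed to 3369 to 4174 TPM, with Cd68 at 2694 to 3367 TPM and the F4/80 gene Adgre1 at 189 to 307 TPM, but Gata6, the transcription factor of large peritoneal macrophages, was at 0.862 to 2.11 TPM and Timd4 at 0.427 to 3.38 TPM. Of the markers of other cells, 4 neutrophil genes summed to 76.2 to 99.1 TPM in LPS+IFNb, 118 to 147 TPM in LPS, 38.0 to 58.2 TPM in IFNb and 74.7 to 76.3 TPM in Saline, nearly all from S100a8 and S100a9, while Ly6g was at 0 to 0.746 TPM. The 4 B cell markers summed to 27.6 to 33.96 TPM in LPS+IFNb, 28.9 to 34.5 TPM in LPS, 32.3 to 40.8 TPM in IFNb and 51.6 to 54.3 TPM in Saline. T and NK cell, mast cell and mesothelial markers summed to at most 6.61, 26.8 and 8.07 TPM. No marker was at 0 in all 8 libraries, and the part of these cells in the results was not tested. In bulk samples, fewer cells of a type and less RNA per cell cannot be told apart.

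In the annotation used (GENCODE M21, GRCm38), Isg15 lies at chr4:156199424-156200818 on the minus strand, Uba7 at chr9:107975505-107984060, Ube2l6 at chr2:84798828-84810335, Herc6 at chr6:57581000-57664632 and Usp18 at chr6:121245906-121270917, all 4 on the plus strand. RefSeq promoter windows (GRCm38.p6, from 250 bases before to 50 bases after the RefSeq gene start) were at hand for 4 of the 5 genes and not for Usp18. They are shown because the members moved together and the interferon-stimulated response element (ISRE), the DNA element of interferon-induced genes, has a known letter pattern. Capitals mark every match, on either strand, to the ISRE letters (GAAA, any 2 bases, GAAA) or to the shorter IRF-binding core AANNGAAA, which lies inside each ISRE match and may also stand alone. The Isg15 window is chr4:156200769-156201068 on the minus strand and the Uba7 window is chr9:107975317-107975616 on the plus strand, both written 5′ to 3′ along the gene.
Isg15: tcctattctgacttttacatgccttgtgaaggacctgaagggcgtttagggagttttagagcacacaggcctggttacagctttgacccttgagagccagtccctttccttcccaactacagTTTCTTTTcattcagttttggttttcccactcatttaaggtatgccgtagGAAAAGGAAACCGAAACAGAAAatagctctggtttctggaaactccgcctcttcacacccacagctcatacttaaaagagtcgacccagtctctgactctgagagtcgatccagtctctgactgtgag
Uba7: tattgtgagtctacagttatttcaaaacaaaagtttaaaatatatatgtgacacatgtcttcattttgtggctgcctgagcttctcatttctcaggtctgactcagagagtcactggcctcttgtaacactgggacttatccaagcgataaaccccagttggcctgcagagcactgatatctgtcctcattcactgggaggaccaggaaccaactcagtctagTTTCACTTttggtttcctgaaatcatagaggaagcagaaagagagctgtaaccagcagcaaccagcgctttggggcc
The Isg15 window held 3 overlapping ISRE matches in 1 run from position -78 to -57 relative to the gene start, and 1 further match to the core at -128 to -121. The Uba7 window held no ISRE match and 1 core match, at -27 to -20 from the RefSeq start. That start lies downstream of the GENCODE start of Uba7, so this match lies inside the gene as GENCODE places it. The GENCODE transcripts that start before the match, Uba7-204 and Uba7-201, were at 0 TPM except for Uba7-201 at 1.06 TPM in IFNb replicate 2. All other Uba7 transcripts start after the match. The windows of Ube2l6 (chr2:84798578-84798877) and Herc6 (chr6:57580742-57581041) held neither pattern, which says only that these letters are not in these windows. Among 32851 windows, 3.44% held an ISRE match and 23.9% a core match.

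All 5 genes were low in Saline and far higher after either agent, and no library of a treated group overlapped a Saline library. Isg15, the modifier itself, was at 3338 and 3023 TPM in LPS+IFNb, 1113 and 1213 TPM in LPS, 2145 and 2004 TPM in IFNb and 13.3 and 8.20 TPM in Saline. It thus stood highest in LPS+IFNb, then IFNb, then LPS, with no overlap between any of the groups.

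Uba7, the E1, was at 426 and 449 TPM in LPS+IFNb, 158 and 185 TPM in LPS, 691 and 641 TPM in IFNb and 37.7 and 45.4 TPM in Saline. Ube2l6, the E2, was at 388 and 391 TPM in LPS+IFNb, 121 and 115 TPM in LPS, 465 and 485 TPM in IFNb and 35.9 and 23.3 TPM in Saline. Herc6, the E3, was at 219.5 and 229 TPM in LPS+IFNb, 57.9 and 56.9 TPM in LPS, 261 and 267 TPM in IFNb and 9.18 and 9.06 TPM in Saline. The 3 enzymes shared an order that differed from that of Isg15: highest in IFNb, then LPS+IFNb, then LPS, then Saline. The place of IFNb above LPS+IFNb did not pass for Ube2l6, and it turned for Ube2l6 and Herc6 when libraries were rescaled.

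Usp18, the protease that removes ISG15, was at 676 and 628 TPM in LPS+IFNb, 193 and 213 TPM in LPS, 813 and 808 TPM in IFNb and 10.3 and 8.58 TPM in Saline. As deposited it had the order of the enzymes, but its lower level in LPS+IFNb than in IFNb did not pass (adjusted p = 0.0530) and turned under median-ratio scaling. In Saline the E1 and E2 stood highest of the 5 by TPM and Usp18, Herc6 and Isg15 were all between 8.20 and 13.3 TPM, while in each treated group Isg15 stood highest.

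**Figure D1:**
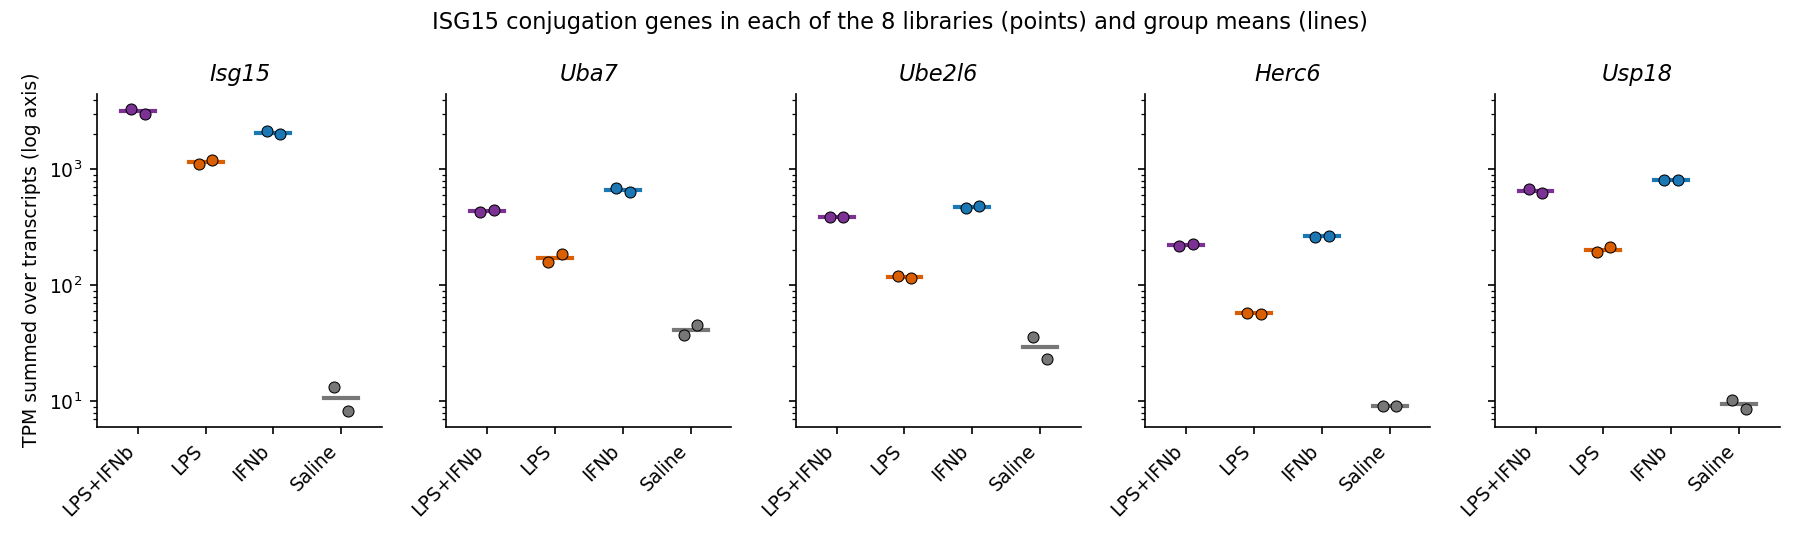
TPM of each gene in the 8 libraries on a log axis, 1 panel per gene, with points for the 2 libraries of a group and lines for the group means. Isg15 is highest in LPS+IFNb (3338 and 3023 TPM), the other 4 genes in IFNb as deposited (only Uba7 after median-ratio scaling), and every treated library lies above both Saline libraries.

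LPS+IFNb against Saline gave the joint response. Isg15 averaged 3180 ± 223 TPM in LPS+IFNb and 10.8 ± 3.63 TPM in Saline (SD, n = 2 each), a 296-fold higher mean. Its change in log2(TPM + 1) was 8.11 ± 0.20 (SE; adjusted p = 6.72e-07 in limma, adjusted over the 13009 genes tested by the Benjamini-Hochberg method). Usp18 rose by 5.97 ± 0.10 (69.2-fold; adjusted p = 2.45e-07), Herc6 by 4.48 ± 0.07 (24.6-fold; adjusted p = 2.18e-07), Ube2l6 by 3.70 ± 0.18 (13.2-fold; adjusted p = 1.23e-05) and Uba7 by 3.37 ± 0.12 (10.5-fold; adjusted p = 2.90e-06). The 5 members of 5 were called higher at an adjusted p under 0.05, where 15.2% of all genes tested were called higher and 54.1% lower.

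LPS against Saline tested the response to LPS alone. Isg15 averaged 1163 ± 70.8 TPM in LPS, 108-fold above Saline (log2 change 6.66 ± 0.20, adjusted p = 2.27e-06), and Usp18 203 ± 14.6 TPM, 21.5-fold above Saline (4.29 ± 0.10, adjusted p = 1.30e-06). The 3 enzymes rose less, Herc6 by 2.53 ± 0.07 (adjusted p = 2.14e-06), Uba7 by 2.02 ± 0.12 (adjusted p = 4.81e-05) and Ube2l6 by 1.99 ± 0.18 (adjusted p = 0.000286). All 5 were called higher, against 12.8% of all genes tested, with 41.3% called lower.

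IFNb against Saline tested the response to IFNb alone. Usp18 averaged 811 ± 3.79 TPM in IFNb and 9.43 ± 1.20 TPM in Saline, an 86.0-fold higher mean (6.29 ± 0.10, adjusted p = 3.08e-07). Herc6 rose by 4.71 ± 0.07 (29.0-fold; adjusted p = 2.41e-07), Ube2l6 by 3.99 ± 0.18 (16.0-fold; adjusted p = 1.26e-05) and Uba7 by 3.98 ± 0.12 (16.0-fold; adjusted p = 1.95e-06). Isg15 averaged 2075 ± 99.1 TPM in IFNb, 193-fold above Saline (7.50 ± 0.20, adjusted p = 1.11e-06). All 5 were called higher, against 13% of all genes tested, with 38.6% called lower. These 3 comparisons use the same Saline libraries.

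LPS against IFNb set the agents side by side. LPS brought the enzymes and the protease to about the same share of their IFNb level: 25.8% for Uba7, 24.8% for Ube2l6, 21.7% for Herc6 and 25.1% for Usp18, and 56.0% for Isg15. The log2 changes were -1.95 ± 0.12 for Uba7 (adjusted p = 5.15e-05), -2.00 ± 0.18 for Ube2l6 (adjusted p = 0.000255), -2.18 ± 0.07 for Herc6 (adjusted p = 5.28e-06) and -1.99 ± 0.10 for Usp18 (adjusted p = 2.67e-05). Isg15 had the smallest, -0.84 ± 0.20 (adjusted p = 0.0159), a call that was lost without any 1 of the LPS or IFNb libraries (-0.77 without LPS replicate 1, -0.90 without LPS replicate 2, -0.79 without IFNb replicate 1 and -0.88 without IFNb replicate 2). All 5 members were called lower in LPS, against 22.1% of all genes tested, with 16.6% called higher.

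LPS+IFNb against LPS asked what prior IFNb added to LPS. All 5 genes were higher in LPS+IFNb: Herc6 by 1.95 ± 0.07 (adjusted p = 3.92e-05), Ube2l6 by 1.72 ± 0.18 (adjusted p = 0.00107), Usp18 by 1.68 ± 0.10 (adjusted p = 0.000179), Isg15 by 1.45 ± 0.20 (adjusted p = 0.00254) and Uba7 by 1.35 ± 0.12 (adjusted p = 0.000591). As ratios of means these were 3.91-fold for Herc6, 3.30-fold for Ube2l6, 3.21-fold for Usp18, 2.74-fold for Isg15 and 2.55-fold for Uba7. Of all genes tested 10.8% were called higher and 24.1% lower.

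In LPS+IFNb against IFNb the members lay on both sides of 0 as deposited. Isg15 was 1.53-fold higher in LPS+IFNb (log2 change 0.62 ± 0.20, adjusted p = 0.0470), whereas Uba7 fell to 438 ± 16.2 TPM in LPS+IFNb, against 666 ± 35.6 TPM in IFNb (-0.60 ± 0.12, adjusted p = 0.01), and Herc6 fell slightly (-0.23 ± 0.07, adjusted p = 0.0437). Usp18 (-0.31 ± 0.10, adjusted p = 0.0530) and Ube2l6 (-0.28 ± 0.18, adjusted p = 0.252) did not pass. Both passed without either Saline library (adjusted p = 0.0283 and 0.0277 for Usp18, 0.0236 and 0.0228 for Ube2l6) and over coding transcripts alone (adjusted p = 0.0387 for Usp18 and 0.0179 for Ube2l6). Over all genes tested the median log2 change was -0.30, close to the values of Herc6, Ube2l6 and Usp18. Of the members 1 was called higher and 2 lower, where 8.76% of all genes tested were called higher and 30.5% lower. These small changes hung on the scale of the libraries: dividing each library by the median ratio of its genes turned the signs of Herc6 (0.09), Ube2l6 (0.04) and Usp18 (0.01), left Uba7 at -0.28 (adjusted p = 0.103) and gave Isg15 0.94 (adjusted p = 0.0296). The Isg15 and Herc6 calls were also lost without any 1 of the LPS, IFNb or LPS+IFNb libraries (adjusted p of 0.0704 to 0.179 for Isg15 and 0.0687 to 0.184 for Herc6), and the Uba7 call without IFNb replicate 1 (-0.55, adjusted p = 0.0598) or LPS+IFNb replicate 1 (-0.57, adjusted p = 0.0574).

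**Figure D2:**
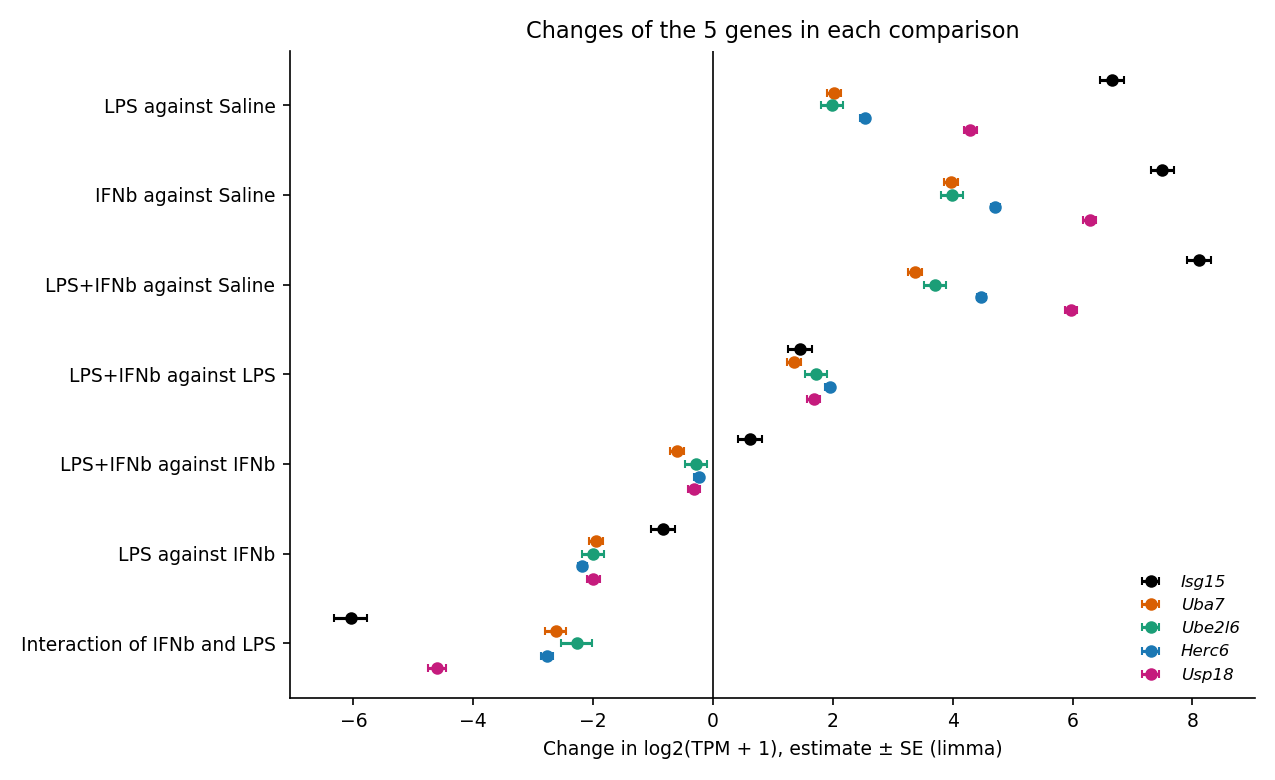
Change in log2(TPM + 1) with its SE from limma for the 5 genes (colours) in the 6 comparisons of groups and in the interaction. All 5 lie right of 0 against Saline and in LPS+IFNb against LPS, and only in LPS+IFNb against IFNb do they fall on both sides of 0, with Isg15 at 0.62 and Uba7 at -0.60 (after median-ratio scaling Herc6, Ube2l6 and Usp18 turn positive there).

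The interaction (the change from LPS to LPS+IFNb less that from Saline to IFNb) tests whether the log2 changes of the agents add. They fell short of adding in all 5 genes: -6.05 ± 0.28 for Isg15 (adjusted p = 6.15e-05), -4.61 ± 0.15 for Usp18 (adjusted p = 1.87e-05), -2.76 ± 0.10 for Herc6 (adjusted p = 3.05e-05), -2.63 ± 0.17 for Uba7 (adjusted p = 0.000260) and -2.27 ± 0.26 for Ube2l6 (adjusted p = 0.00356). Of all genes tested, 4.45% had a negative and 3.51% a positive interaction that passed. The order of the 5 genes was that of their changes in LPS against Saline, which are part of the interaction. Its size thus largely follows how strongly a gene rose with LPS alone. The longer time after IFNb in LPS+IFNb than in IFNb also enters the interaction and cannot be told apart from an effect of combining the agents.

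The scale matters for the levels of all genes. Dividing libraries by the median ratio moved the median log2 change of the genes tested. Against Saline the shift was 0.62 for LPS+IFNb, 0.39 for LPS and 0.34 for IFNb. It was 0.20 for LPS+IFNb set against LPS, 0.28 when set against IFNb, 0.06 between LPS and IFNb and -0.13 in the interaction. Against Saline the excess of lower calls turned to an excess of higher calls, with 3489 higher and 3204 lower for LPS+IFNb against Saline (1980 and 7042 as deposited), 2604 and 2155 for LPS (1664 and 5368) and 2327 and 1823 for IFNb (1697 and 5020). For LPS+IFNb it gave 1878 and 1289 when set against LPS (1400 and 3129) and 1673 and 1376 when set against IFNb (1140 and 3967). In LPS against IFNb it gave 2276 and 2498 (2158 and 2871), and in the interaction 221 and 594 (457 and 579), where the excess of lower calls grew. Dividing libraries by their upper quartile instead left a slight excess of lower calls for LPS+IFNb against Saline (3387 higher and 3503 lower). For LPS and IFNb against Saline it gave 2517 and 2461, and 2317 and 2119. The 5 members were called higher against Saline in all 3 treated groups at each of these scales.

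A ratio of genes inside a library does not depend on how libraries are scaled, so the balance of the mRNAs was read from ratios. It does depend on how the transcripts of a gene are counted. All ratios here use summed TPM, and the level of those with Uba7 is uncertain for this reason (see its transcripts below). Isg15 TPM over Usp18 TPM was 4.94 and 4.82 in LPS+IFNb, 5.77 and 5.68 in LPS, 2.64 and 2.48 in IFNb and 1.30 and 0.955 in Saline. Isg15 TPM was thus at about the level of Usp18 TPM in Saline. In treated libraries it stood 2.48 to 5.77 times as high, and higher in both groups given LPS than in IFNb. No groups overlapped. These are ratios of mRNA, and protein and ISGylation were not measured in these libraries. An exact permutation test over the 4 groups (all 105 assignments of the 8 libraries to groups of 2) gave p = 0.00952, the smallest it can give, and adjusted p = 0.0190 over the 10 pairs of members.

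Isg15 over each enzyme was also higher in the treated libraries than in Saline, where it lay below 1 for Ube2l6 and Uba7. Isg15 over Ube2l6 was 8.60 and 7.73 in LPS+IFNb, 9.18 and 10.6 in LPS, 4.62 and 4.13 in IFNb and 0.371 and 0.352 in Saline (exact permutation p = 0.00952, adjusted p = 0.0190). Isg15 over Herc6 was 15.2 and 13.2 in LPS+IFNb, 19.2 and 21.3 in LPS, 8.21 and 7.51 in IFNb and 1.45 and 0.905 in Saline (exact permutation p = 0.00952, adjusted p = 0.0190). Isg15 over Uba7 was 7.83 and 6.73 in LPS+IFNb, 7.02 and 6.56 in LPS, 3.10 and 3.13 in IFNb and 0.354 and 0.181 in Saline (exact permutation p = 0.0190, adjusted p = 0.0238), with LPS+IFNb and LPS overlapping. In all 4 ratios both LPS-treated groups lay above IFNb in every library, though 2 libraries against 2 cannot give an exact two-sided p under 0.333.

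The ratios among the other 4 genes differed in pattern. Ube2l6 over Usp18 was 0.574 and 0.623 in LPS+IFNb, 0.629 and 0.538 in LPS, 0.571 and 0.601 in IFNb and 3.50 and 2.72 in Saline, so the treated groups overlapped each other and stood apart from Saline (exact permutation p = 0.133, adjusted p = 0.148). Herc6 over Usp18 was 0.325 and 0.365 in LPS+IFNb, 0.300 and 0.267 in LPS, 0.321 and 0.330 in IFNb and 0.893 and 1.06 in Saline (exact permutation p = 0.0190, adjusted p = 0.0238). Uba7 over Herc6 was 1.94 and 1.96 in LPS+IFNb, 2.74 and 3.25 in LPS, 2.65 and 2.40 in IFNb and 4.11 and 5.01 in Saline, so no groups overlapped, treated ones included (exact permutation p = 0.00952, adjusted p = 0.0190). Uba7 over Ube2l6, the E1 over the E2, was between 1.05 and 1.95 by summed TPM in all 8 libraries (exact permutation p = 0.676). Of the 10 pairs 8 passed, Uba7 over Ube2l6 and Ube2l6 over Usp18 being the exceptions, and the count fell to 4 without LPS replicate 2.

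**Figure D3:**
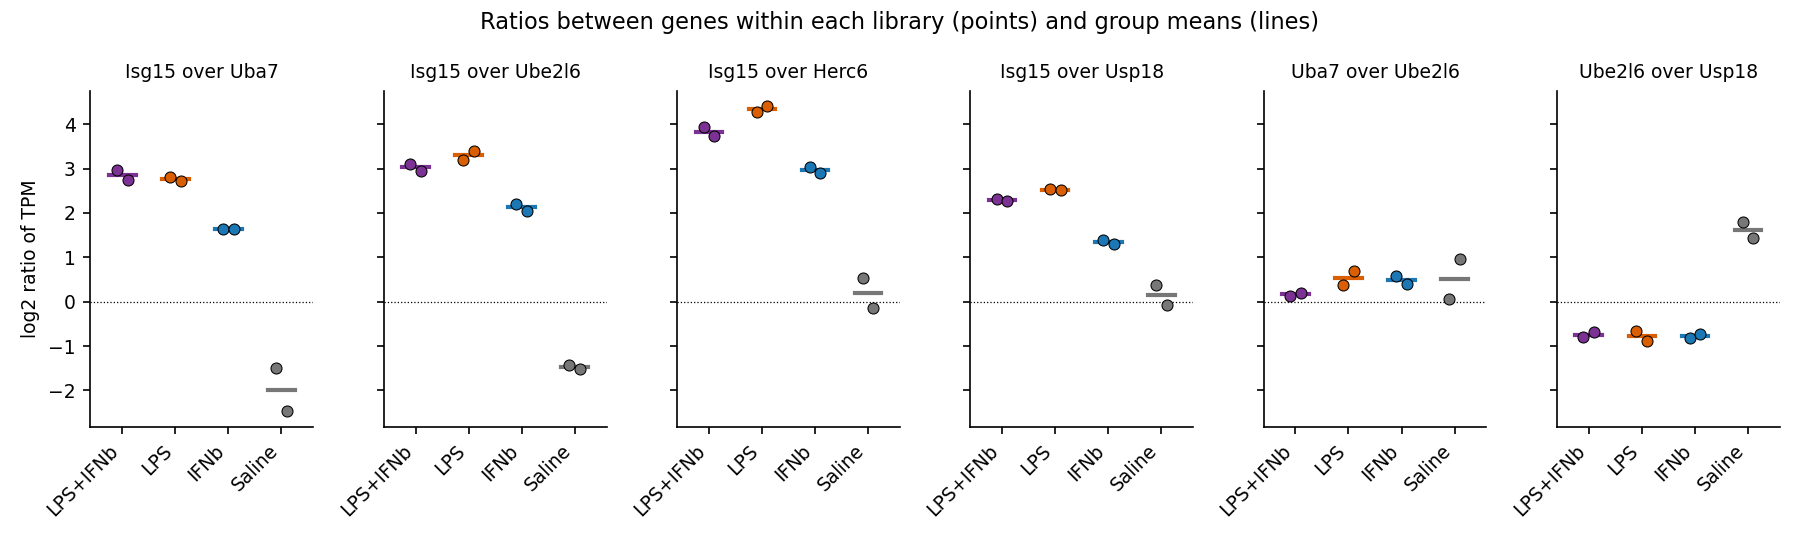
Log2 ratio of TPM for 6 of the 10 pairs of genes in each library, with lines at the group means. The 4 ratios with Isg15 on top are higher in LPS+IFNb and LPS than in IFNb (2.29 and 2.52 against 1.35 for Isg15 over Usp18). Uba7 over Ube2l6 stays between 0 and 1 by summed TPM, a level that depends on how Uba7 transcripts are counted. Ube2l6 over Usp18 is below 0 in all treated libraries and above 0 in Saline.

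The deposited values of Uba7 rest on unusual transcripts. Of its 15 annotated transcripts, the 1 classed as protein coding (Uba7-201, 3195 nt) was listed at 0 in 7 libraries and at 1.06 TPM in IFNb replicate 2. Retained-intron transcripts held 73.0% to 88.8% of the gene's TPM and transcripts annotated for nonsense-mediated decay 10.4% to 17.9%. The 7 transcripts under 600 nt held 64.6% to 69.8% of the TPM. Weighted by annotated length, which is closer to a share of reads, they held 22.8% to 25.6%, and the 6 transcripts with 22 to 24 exons held 45.6% to 63.1%.

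The Uba7 transcripts did not share 1 pattern. Uba7-211, a 23-exon transcript annotated for nonsense-mediated decay, was at 42.8 and 43.5 TPM in LPS+IFNb, 3.57 and 2.65 TPM in LPS, 76.3 and 75.5 TPM in IFNb and 4.18 and 3.75 TPM in Saline, so it was no higher in LPS than in Saline. Uba7-208, a short retained-intron transcript, was at 81.2 and 87.5 TPM in LPS+IFNb, 24.5 and 30.2 TPM in LPS, 133 and 124 TPM in IFNb and 7.96 and 7.28 TPM in Saline. How reads are divided among transcripts of 1 gene is an estimate, and its part in these differences was not tested.

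With TPM times transcript length in place of TPM, a setting added after these transcripts were seen, the Uba7 log2 changes were 3.31 in LPS+IFNb against Saline, 2.04 in LPS against Saline and 3.84 in IFNb against Saline, all called. The level of Uba7 relative to other genes did move. Spread over the 3195 nt of the coding transcript, its signal came to 179 and 175 TPM in LPS+IFNb, 65.6 and 75.3 TPM in LPS, 269 and 254 TPM in IFNb and 14.3 and 18.5 TPM in Saline, by annotated and not effective length. That is close to the Herc6 levels in IFNb, below the Herc6 levels in LPS+IFNb (219.5 and 229 TPM) and below the Ube2l6 levels in all 8 libraries. The place of Uba7 above Ube2l6 and Herc6 by summed TPM is thus uncertain. Counted this way, Uba7 over Ube2l6, Herc6 or Usp18 would be lower than printed above, and Isg15 over Uba7 higher. The printed levels of these ratios belong to summed TPM. A predicted gene on the same strand, Gm20661, overlaps the end of Uba7 and was at 3.44 and 3.54 TPM in LPS+IFNb, 0 in LPS, 1.16 and 0.548 TPM in IFNb and 0 in Saline.

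For Ube2l6, protein-coding transcripts held 68.1% to 99.1% of the TPM. The retained-intron transcript Ube2l6-204 was at 91.6 and 88.9 TPM in LPS+IFNb, 18.8 and 21.2 TPM in LPS, 100.96 and 120.7 TPM in IFNb, and 11.2 and 0 TPM in Saline. Nearly all of the difference between the Saline libraries of Ube2l6 lay in that transcript, since the main coding transcript Ube2l6-201 was at 24.5 and 22.4 TPM there. Isg15, Herc6 and Usp18 each had 1 transcript in the files, a protein-coding one.

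**Figure D4:**
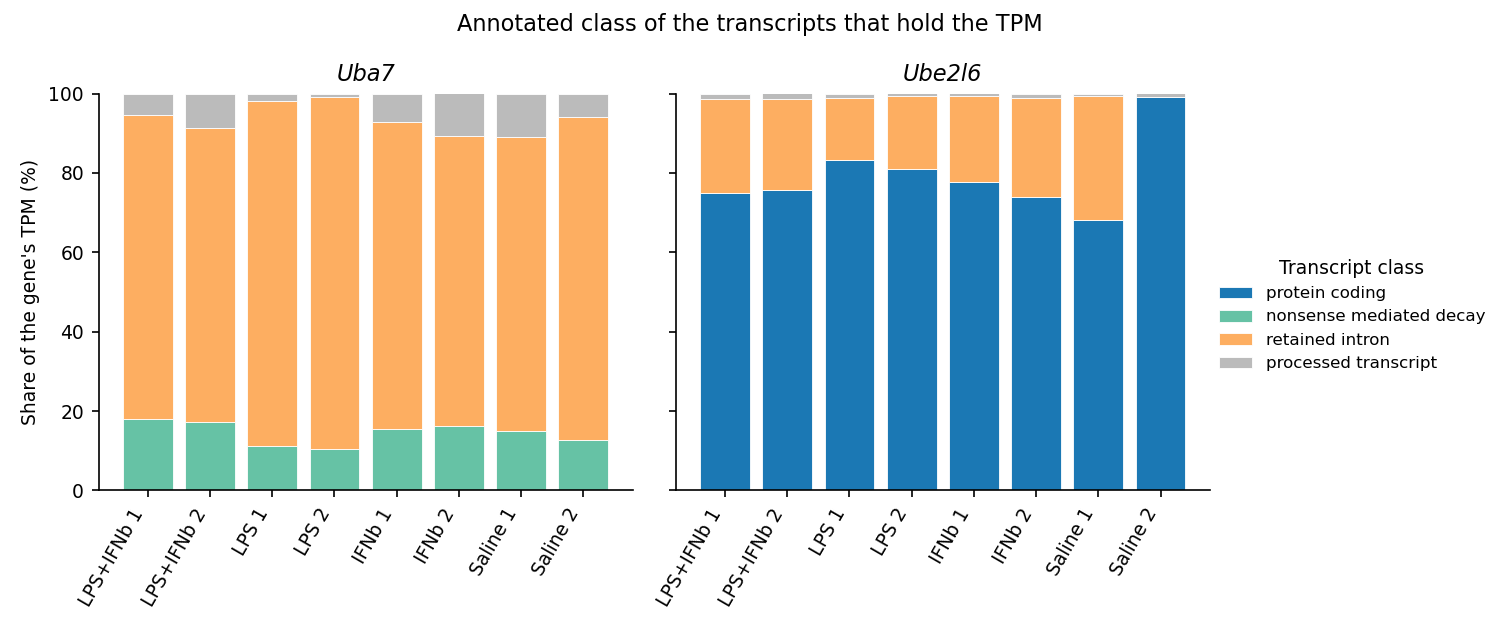
Share of the TPM of Uba7 and of Ube2l6 held by each annotated class of transcript, 1 bar per library. In Uba7 the retained-intron class holds 73.0% to 88.8% and the coding class is too small to see, while in Ube2l6 the coding class holds 68.1% to 99.1%.

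Genes nearest in pattern to the members were, by the way they were picked, also higher in IFNb than in Saline in these libraries. Likeness was the root mean square difference over the 8 libraries between log2(TPM + 1) profiles, each less its own mean, among 7086 well-expressed genes. The 8 nearest to the mean of the members were Oasl2 (0.14), Ifi209 (0.15), Igtp (0.17), Oas1g (0.22), Mndal (0.23), Phf11d (0.24) and 2 clone-named genes with identical values, AC132444.2 and AC132444.4 (0.25 each). Oasl2 and Oas1g belong to the oligoadenylate synthetase family of antiviral proteins, Igtp is an immunity-related GTPase, and Ifi209 and Mndal are p200-family genes.

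The members had different neighbours. Nearest to Isg15 were Ifi205 (0.31) and Trim30c (0.36), which shared its order, and the antiviral enzyme gene Rsad2 (0.44). Ifi205 was at 2949 and 3128 TPM in LPS+IFNb, 992.5 and 747 TPM in LPS, 1410 and 1412 TPM in IFNb and 7.65 and 8.95 TPM in Saline. Among the 3 nearest to Uba7 were Mov10 (0.16), an RNA helicase gene, and Slc25a22 (0.18). Among the 3 nearest to Ube2l6 were Oas1a (0.08) and Pnp (0.22), and nearest to Herc6 Dhx58 (0.11), which encodes the RNA sensor LGP2, Pnp (0.16) and Oas3 (0.20). Nearest to Usp18 were Ifi47 (0.14), Gbp7 (0.16) and Gbp3 (0.16). Between members, the profiles were nearest for Uba7 and Ube2l6 (0.28) and farthest for Isg15 and Uba7 (1.94).

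Genes that act with the set were called in both directions. Of 15 listed, 14 were tested: 6 rose and 5 fell in LPS+IFNb against Saline (after median-ratio scaling 8 and 4), 8 rose and 5 fell in LPS against Saline (8 and 2), and 4 rose and 7 fell in IFNb against Saline (5 and 2). Of all genes tested, 15.2% were called higher and 54.1% lower in LPS+IFNb as deposited. The shares were 12.8% and 41.3% in LPS and 13% and 38.6% in IFNb. The median changes of the 14 were -0.15, 0.72 and -0.40, beside -0.62, -0.38 and -0.37 over all genes tested. Stat2 and Irf9, which encode interferon-signalling transcription factors, rose in all 3: Stat2 by 3.49 ± 0.08, 3.39 ± 0.08 and 4.21 ± 0.08, and Irf9 by 1.37 ± 0.10, 1.42 ± 0.10 and 1.53 ± 0.10 (adjusted p of 8.68e-05 or less).

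Other ligases and proteases reported to handle ISG15 were mixed. The ligase gene Trim25 rose by 2.02 ± 0.14, 1.61 ± 0.14 and 1.39 ± 0.14 (adjusted p = 4.91e-05, 0.000242 and 0.000462) in LPS+IFNb, LPS and IFNb against Saline. Arih1, another reported ISG15 ligase, had -0.14 ± 0.12, -0.24 ± 0.12 and -0.39 ± 0.12, of which the last passed (adjusted p = 0.0325); after median-ratio scaling these were 0.57, which passed, 0.22 and 0.00. Usp2, a protease with activity on ISG15 in vitro, was at 0.504 and 0.584 TPM in LPS+IFNb, 0.894 and 0.357 TPM in LPS, 3.52 and 4.69 TPM in IFNb and 8.84 and 6.36 TPM in Saline. It fell by 2.46 ± 0.24 in LPS+IFNb against Saline (adjusted p = 0.000184), by 2.41 ± 0.24 in LPS against Saline (adjusted p = 0.000421) and by 0.75 ± 0.24 in IFNb against Saline (adjusted p = 0.0398, lost after median-ratio scaling at 0.308). Usp5 fell by 1.39, 0.80 and 0.77 and Usp14 by 1.32, 0.38 and 0.93, all passing as deposited, while Usp16 had -0.24, 0.45 and -0.46, the last 2 passing. After median-ratio scaling Usp14 was at 0.08 in LPS, Usp16 at 0.47 in LPS+IFNb and -0.07 in IFNb (adjusted p = 0.693), and Usp5 no longer passed in LPS or IFNb.

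Among receptors and partners, Ifnar1 rose by 1.09 ± 0.09 in LPS+IFNb and 1.30 ± 0.09 in LPS and had -0.15 ± 0.09 in IFNb (0.24 after median-ratio scaling), each against Saline. Ifnar2, the chain that USP18 binds, rose by 0.83 ± 0.10 and 0.99 ± 0.10 and had 0.19 ± 0.10 in IFNb (adjusted p = 0.140; 0.58 and 0.0249 after median-ratio scaling). Skp2, whose product targets USP18 for degradation in human cells, fell by 2.26 ± 0.19, 1.98 ± 0.19 and 1.15 ± 0.19 in LPS+IFNb, LPS and IFNb against Saline. Skp2 was low, at 0.34 and 0.42 TPM in LPS+IFNb and 0.48 and 0.91 TPM in LPS. Its levels were 2.13 and 1.84 TPM in IFNb and 5.4 and 5.85 TPM in Saline. Of the LFA-1 subunits, a reported receptor of extracellular ISG15, Itgal had -0.15 ± 0.40, 1.73 ± 0.40 and -0.90 ± 0.40, with the rise in LPS passing (adjusted p = 0.0109), and Itgb2 fell by 0.50, 0.25 and 0.41, all passing as deposited and none after median-ratio scaling, where they were 0.22, 0.22 and -0.01.

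Members of the wider ubiquitin families were called in both directions. For comparison, 15.2% of all genes tested were called higher and 54.1% lower in LPS+IFNb, 12.8% and 41.3% in LPS and 13% and 38.6% in IFNb, each against Saline. Of 9 other E1 genes, 1 rose and 6 fell in LPS+IFNb against Saline (after median-ratio scaling 4 and 2), none rose and 3 fell in LPS against Saline (3 and 2) and none rose and 5 fell in IFNb against Saline (1 and 2), with Sae1 at -1.58 ± 0.09 and Uba1, the ubiquitin E1, at 0.35 ± 0.08 in the first. Of 30 other E2 genes, 6 rose and 13 fell in LPS+IFNb (14 and 3), 6 rose and 5 fell in LPS (13 and 1) and 2 rose and 10 fell in IFNb (8 and 3). Ube2e1 rose by 1.53 ± 0.09 in LPS+IFNb and 1.70 ± 0.09 in IFNb. Ube2f, an E2 for NEDD8, rose by 1.04 ± 0.08 in LPS+IFNb and 1.57 ± 0.08 in LPS. In IFNb, Ube2f was lower as deposited, at 36.1 and 35.6 TPM against 53.95 and 51.1 TPM in Saline. Ube2l3, the paralog of Ube2l6, fell by 0.40 ± 0.09 in LPS (0.06 after median-ratio scaling).

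None of the 4 other HERC genes rose in any treated group against Saline as deposited; 3 fell in LPS+IFNb (Herc1, Herc2 and Herc4), 2 in LPS (Herc1 and Herc4) and 1 in IFNb (Herc4), and after median-ratio scaling none fell and 1 rose in IFNb. Of 41 other USP genes tested, 4 rose and 24 fell in LPS+IFNb (12 and 9), 4 rose and 16 fell in LPS (6 and 5) and 5 rose and 14 fell in IFNb (9 and 4). Usp25 rose by 2.27 ± 0.08, 1.00 ± 0.08 and 2.33 ± 0.08 and Usp12 by 2.45 ± 0.13, 1.42 ± 0.13 and 1.90 ± 0.13 in LPS+IFNb, LPS and IFNb (adjusted p of 0.000297 or less). Of 12 other modifier genes tested, 2 rose and 8 fell in LPS+IFNb, 1 rose and 6 fell in LPS and 2 rose and 6 fell in IFNb (after median-ratio scaling, with 13 tested, 5 and 2, 2 and 3, and 2 and 0). In log2 change no gene of these families reached any of the 5 members in LPS+IFNb, LPS or IFNb against Saline as deposited.

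**Figure D5:**
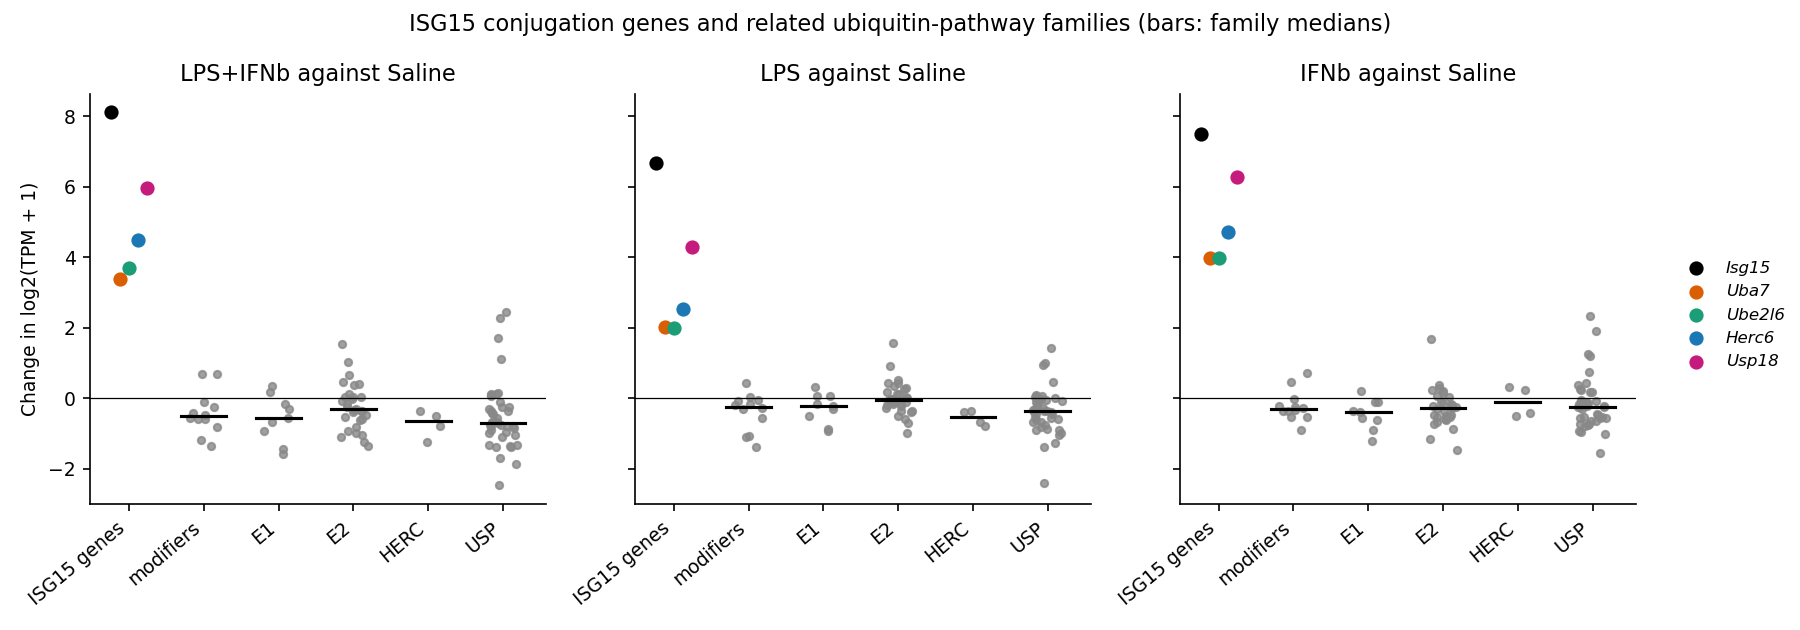
Change in log2(TPM + 1) against Saline for the 5 genes (coloured) and for the tested genes of 5 related families (grey points, bars at the family medians), in LPS+IFNb, LPS and IFNb. The 5 genes lie between 1.99 and 8.11, above every grey point of their panel, and the family medians lie between -0.69 and -0.05 (0.35 to -0.04 after median-ratio scaling in LPS+IFNb).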

How the data were processed

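RNA was made into libraries with an Illumina TruSeq RNA kit, per the labels. The deposited values are TPM per Ensembl transcript, made by the authors with kallisto against mm10, per the submitters' processing notes; its version, options and transcript set were not given in the sources used here. TPM keeps no depth, and 46998 to 53928 transcripts were above 0 per library.

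Of 88198 transcripts, 86119 matched GENCODE M21 and were summed to 30284 genes; the 2079 unmatched held 1.01% to 1.95% of TPM and were left out. Genes at 1 TPM or more in at least 2 libraries (13009) were tested on log2(TPM + 1), which understates changes of low genes, with limma 3.58.1 (R 4.3.3; mean-variance trend, 4 groups in 1 fit, 4 residual degrees of freedom, Benjamini-Hochberg adjustment over all genes tested). Ratios between members were tested by exact permutation in Python 3.11.15. The tests were checked on simulated data. All members were named, with every measured gene of the list linked to ISG15 and, from each family list (other modifiers, E1, E2, HERC and USP genes), up to 3 genes per direction and comparison in order of adjusted p, of which some are printed; Usp13 was not tested, and some genes that this rule names are not reported here. Genes nearest in pattern were the nearest among those whose log2(TPM + 1) averaged 3 or more. Members and lists were chosen with earlier results of these data known. Alternatives covered scaling, pseudocount, filter, thresholds, fit, a replicate block, coding transcripts alone and leaving out each library. Across genes, deviations from the group means correlated between -0.156 and 0.141 in same-numbered libraries of different groups, so the numbers were not taken as pairs.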

Additional observations from a re-analysis of the deposited data

Results flagged for a closer look

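In all 5 genes the effect of LPS after IFNb differed from its effect without IFNb, by the interaction in limma over the 13009 genes tested. The difference of the log2 changes was -6.05 for Isg15 (adjusted p = 6.15e-05), -4.61 for Usp18 (adjusted p = 1.87e-05), -2.76 for Herc6 (adjusted p = 3.05e-05), -2.63 for Uba7 (adjusted p = 0.000260) and -2.27 for Ube2l6 (adjusted p = 0.00356). The later time after IFNb in the LPS+IFNb libraries cannot be told apart from the addition of LPS here. With 2 libraries a group, no library could be tested as standing apart from its group.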

How the results depend on the processing

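Of 688 changes of members under alternatives, 640 kept their direction and their side of the threshold. Outside LPS+IFNb against IFNb, 583 of 589 did and 0 reversed; the other 6 were all Isg15 in LPS against IFNb. In LPS+IFNb against IFNb, median-ratio and upper-quartile scaling, which shift all genes, turned Ube2l6 to 0.0436 and 0.0287 and Herc6 to 0.0929 and 0.078, and median-ratio scaling turned Usp18 to 0.0138. Members higher there were 0, and not 1, with a pseudocount of 0.1, no filter, no intensity trend, an adjusted p under 0.01 or a log2 change of at least 1, and 0 to 1 without 1 library. Members lower there were 0, and not 2, under both scalings and both thresholds, 1 without the trend and 1 with the replicate block (Herc6 adjusted p = 0.0706), and 0 to 4 without 1 library. The replicate block changed no other call of a member. The cause was not tested.

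Genes called at an adjusted p under 0.01 and at a log2 change of at least 1 were 4639 and 3028 in LPS against Saline (7032 in the reported fit), 4263 and 2577 in IFNb against Saline (6717), 2328 and 1322 in LPS+IFNb against LPS (4529), 2413 and 1511 in LPS+IFNb against IFNb (5107) and 3144 and 2361 in LPS against IFNb (5029). LPS+IFNb against Saline had 5270 at that log2 change (9022), and the interaction 401 at that adjusted p (1036). Median-ratio and upper-quartile scaling gave 4150 and 4436 in IFNb against Saline and 3049 and 3230 in LPS+IFNb against IFNb. TPM times transcript length, chosen after seeing the data, gave 2013 in the interaction. Without 1 library the counts were 5295 to 6752 (LPS against Saline), 4707 to 6506 (IFNb against Saline), 7844 to 8836 (LPS+IFNb against Saline), 2725 to 5008 (LPS+IFNb against LPS), 2485 to 5555 (LPS+IFNb against IFNb), 3351 to 5335 (LPS against IFNb) and 467 to 948 (interaction). Ratio pairs that passed were 4 to 8 of 10 without 1 library (8 in the reported test). Over coding transcripts alone 5 passed, but Uba7 could not be tested there and its pairs dropped out. None of the remaining pairs changed its side of the threshold. TPM gives no depth, so counting error is unknown.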

Other observations

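On the linear scale, a view chosen after the values were seen, the genes parted. The gain of Isg15 over Saline was 3169 ± 157 TPM in LPS+IFNb (SE), 98.6% of the 3216 ± 86.3 TPM that the gains in LPS and IFNb sum to. The gain in LPS+IFNb was 71.0% of that sum for Herc6, 67.5% for Ube2l6, 64.6% for Usp18 and 52.5% for Uba7. No test was run on these shares, and the gains share the Saline libraries. The shares belong to the deposited scale. Median-ratio scaling moved the median log2 change against Saline by 0.62 for LPS+IFNb, 0.39 for LPS and 0.34 for IFNb. Because that shift is uneven, the shares would differ at that scale, and they were not computed there.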
